A study of Mus musculus with 6 samples.

Results

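The constitutive proteasome is the large protease that degrades ubiquitin-tagged proteins in every cell. Its 33 genes considered here comprise the 7 alpha and 7 beta subunits of the 20S core and 19 genes of the 19S cap. The cap genes are 6 ATPases, 2 scaffolds and a ubiquitin receptor (3 genes together), 8 lid subunits and 2 assembly chaperones. The genes were chosen by symbol from this fixed list, without the immunoproteasome subunits. No measured value served as a criterion, but the list was chosen with earlier results of these data known. All 33 were found among the 55414 gene identifiers of the count table. All 33 also passed the filter on low counts, as members of a set of 14808 genes tested.

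The samples were cultures of AY-mICC, a mouse line from a study of intrahepatic cholangiocarcinoma, the cancer of the bile ducts inside the liver. All were grown in DMEM with fetal bovine serum and antibiotics, with no further treatment. The 3 libraries labelled shCon have the genotype control, and the 3 libraries labelled shCopa carry the knockdown of Copa, which encodes a subunit of the COPI coat that returns vesicles from the Golgi to the endoplasmic reticulum. Both groups come from this single line, and the labels used here give neither the sequence of the knockdown construct nor the number of constructs or clones. The labels also do not say that the 3 libraries of a group came from separate cultures, so the p-values reflect nothing beyond the spread among these 6 libraries, and that spread may be technical.

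In the assembled 26S particle, stacked alpha and beta rings enclose the proteolytic chamber, and the alpha rings gate the entrance. The cap binds ubiquitin chains, removes them, and threads the unfolded substrate through a ring of ATPases into the core. Most proteasome genes are controlled together. The transcription factor NFE2L1 is made at the endoplasmic reticulum membrane, pulled out by the ATPase VCP, stripped of its sugars by NGLY1 and cleaved by DDI2. When proteolysis falls short, the processed factor binds antioxidant response elements in front of proteasome genes together with a small MAF protein.

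Copa itself was measured at 420, 517 and 527 CPM (counts scaled to a common library size by TMM normalisation) in shCon 1 to 3 against 186, 182 and 187 CPM in shCopa 1 to 3, which is 37.9% of control. The libraries held 19634938 to 24546204 estimated counts, and every member had 796 to 10554 counts in each. The library shCon 1 stood apart: its log levels correlated with those of shCon 2 and shCon 3 at r = 0.974 and 0.972, against 0.989 to 0.991 for the other pairs within a group. No pair of libraries agreed within sampling noise. Of the bile duct epithelial markers, Krt19 and Sox9 were well expressed and did not pass the test, Krt7, Krt8, Krt18 and Spp1 fell, and Epcam and Cldn4 were nearly undetected, with 4 to 17 and 2 to 8 counts. The summed level of these 9 markers was 11200 to 13900 CPM in shCon and 8530 to 9070 CPM in shCopa. Leukocyte markers summed to 1.30 to 1.75 against 9.33 to 9.98 CPM (Ptprc 0 to 1 against 21 to 25 counts), endothelial markers to 0.0815 to 0.224 against 1.60 to 3.62 CPM, hepatocyte markers to 10.7 to 14.5 against 31.4 to 33 CPM with Cyp3a11 at 0 in every library, and fibroblast markers to 182 to 221 against 170 to 183 CPM. All of these sums except that of the fibroblast markers differed between the groups without overlap, and their part in the results below was not tested. In such bulk samples, fewer cells of a type and less RNA per cell cannot be told apart.

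4 promoters are shown first, because they belong to members with different responses: Psmc4 and Psmd13, which fell, Psmd11, which rose, and Psmd12, which did not pass the test. RefSeq promoter windows (GRCm38.p6, which is not the GRCm39 build of the counts, matched by symbol) were held for 27 of the 33 members, as 29 windows of 300 bases running from 250 bases before to 50 bases after the start. No window was held for Psmb1, Psmb2, Psmb7, Psmc3, Psmd3 or Psmd7, so Psmc4 and Psmd13 are the only members that fell with a window. Capitals mark each match to the antioxidant response element core TGANNNNGC or to the GC box GGGCGG, on either strand. The windows are Psmc4 at chr7:28050043-28050342 on the minus strand, and on the plus strand Psmd13 at chr7:140882144-140882443, Psmd11 at chr11:80428365-80428664 and Psmd12 at chr11:107479278-107479577.
Psmc4: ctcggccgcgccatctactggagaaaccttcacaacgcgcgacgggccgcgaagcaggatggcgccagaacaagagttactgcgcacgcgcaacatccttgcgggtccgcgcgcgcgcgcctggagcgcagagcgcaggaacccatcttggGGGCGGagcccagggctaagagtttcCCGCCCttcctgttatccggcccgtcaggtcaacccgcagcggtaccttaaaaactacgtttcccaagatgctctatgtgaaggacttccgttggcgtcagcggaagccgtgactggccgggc
Psmd13: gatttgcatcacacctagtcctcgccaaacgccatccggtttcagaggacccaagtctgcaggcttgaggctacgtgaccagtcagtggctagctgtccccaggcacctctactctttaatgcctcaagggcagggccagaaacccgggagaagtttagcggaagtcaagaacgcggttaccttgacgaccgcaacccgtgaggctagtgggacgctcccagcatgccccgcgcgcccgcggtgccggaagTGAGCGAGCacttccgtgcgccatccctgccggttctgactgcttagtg
Psmd11: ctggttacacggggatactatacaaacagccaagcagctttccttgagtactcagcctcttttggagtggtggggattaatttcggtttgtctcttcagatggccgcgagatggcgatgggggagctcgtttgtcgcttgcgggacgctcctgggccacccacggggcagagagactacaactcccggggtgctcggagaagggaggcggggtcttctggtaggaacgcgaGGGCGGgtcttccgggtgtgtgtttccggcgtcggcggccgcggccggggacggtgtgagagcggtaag
Psmd12: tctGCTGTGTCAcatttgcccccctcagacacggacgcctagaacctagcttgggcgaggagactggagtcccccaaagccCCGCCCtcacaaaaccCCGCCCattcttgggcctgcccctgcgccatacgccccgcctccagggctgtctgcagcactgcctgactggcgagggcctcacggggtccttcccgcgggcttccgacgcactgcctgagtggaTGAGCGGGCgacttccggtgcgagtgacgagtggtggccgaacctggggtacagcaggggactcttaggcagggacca
Psmc4 held 2 GC boxes and no antioxidant response element core, Psmd13 held 1 core and no GC box, Psmd11 held 1 GC box and no core, and Psmd12 held 2 cores and 2 GC boxes. Among the 29 member windows, the core was found in 16 (55.2%), against 41.3% of all 32851 windows in the table. The GC box was found in 17 (58.6%), against 35.7% of all windows. The CCAAT box, searched as CCAAT, was found in 11 (37.9%), against 37.4%, and the AP-1 core TGACTCA in 1, that of Psmd9 (3.45%), against 5.2%. A match is a description of the letters in the window and was not tested as a binding site.

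After Copa knockdown, 6 of the 33 members fell, 1 rose and 26 did not pass the test (edgeR quasi-likelihood test, adjusted p under 0.05 over all genes tested). The members that fell were Psmd7, Psmc4, Psmd3, Psmd13, Psmc3 and Psmb1, and the member that rose was Psmd11. Their share of 18.2% lower is close to the background, since 18.4% of all genes tested were lower. The share of 3.03% higher stands beside 18.2% of all genes tested. The median log2 change of the 33 members was -0.26, ranging from -1.19 to 0.52, against -0.01 for all genes tested, and 28 members lay below 0. In 13 members (39.4%) every shCopa library was below every shCon library, against 26.9% of all genes, and in 1 member (3.03%) every shCopa library was above, against 27.2% of all genes.

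Much of that common downward shift moved with a single control library. The library shCon 1 was higher than shCon 2 and shCon 3 in 32 of the 33 members, the exception being Psmd1, whereas this held for 43.3% of all genes tested. Its level divided by the mean of shCon 2 and shCon 3 had a median of 1.34 over the members (0.857 to 1.94) and of 0.992 over all genes. That ratio also varied with transcript length, with medians over all genes tested of 1.30 for transcripts up to 2203 bases, 1.01 for those between and 0.799 for those over 3802 bases. Of the members, 26 had a transcript in the short class, 7 in the middle class and 0 in the long class. Without shCon 1, the members' median log2 change was -0.07, against 0.01 for all genes tested. In that fit 11 members (33.3%) were lower against a background of 26.9%, and 3 (9.09%) were higher against 28.2%. With offsets for transcript length and GC content, the members' median was -0.28, against -0.06 for all genes tested. In that fit 15 members (45.5%) were lower against 27.1%, and 1 was higher against 21.4%. The members together took 0.573% of all counts in shCon 1, 0.434% and 0.444% in shCon 2 and shCon 3, and 0.409%, 0.421% and 0.431% in the shCopa libraries.

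**Figure D1:**
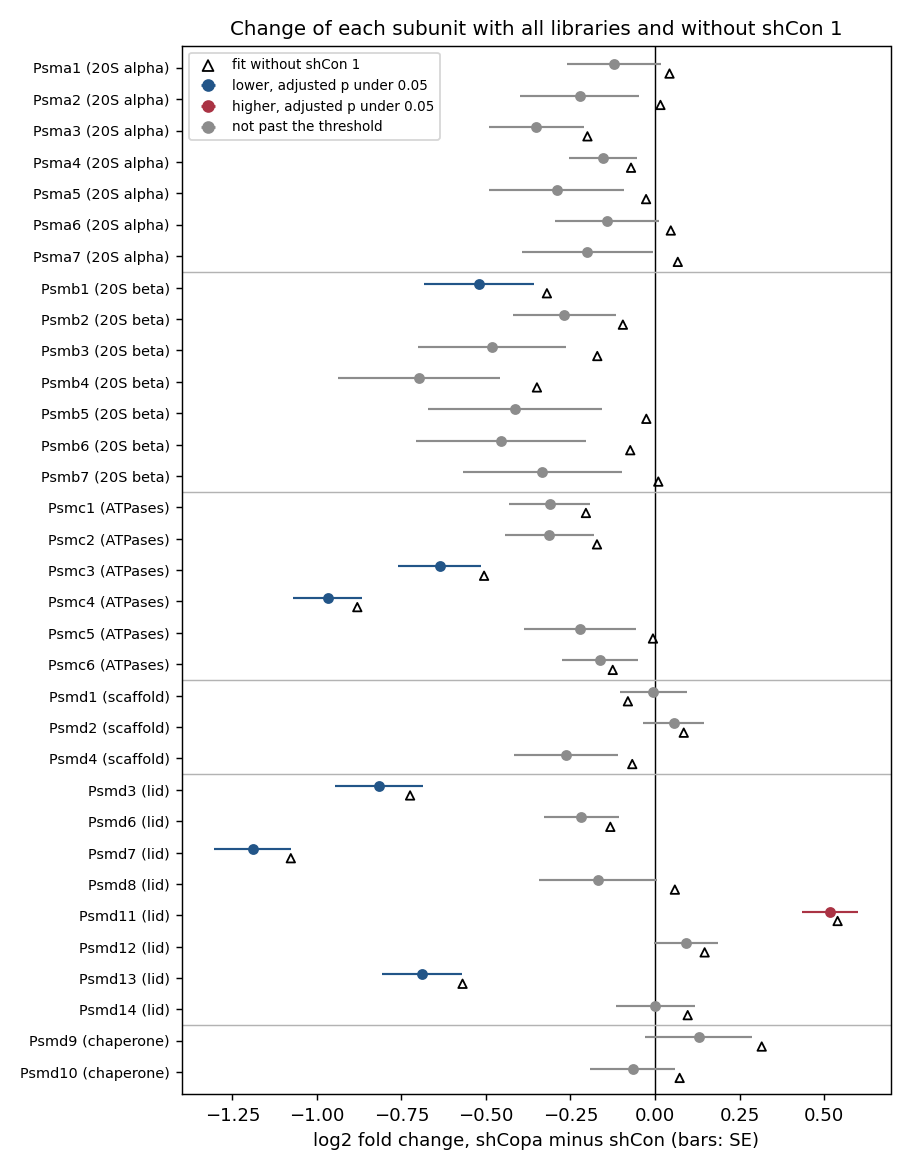
Log2 change (shCopa minus shCon, x axis) for each of the 33 members, in rows grouped by role. Points with bars (SE) come from all 6 libraries, coloured where past the test, and triangles from the fit without shCon 1. Psmd7 and Psmc4 lie far below 0 and Psmd11 above it in both fits, while the beta ring sits nearer 0 without shCon 1.

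The change farthest from 0 was in the lid of the 19S cap. Psmd7 encodes RPN8, the partner of the deubiquitinase RPN11 in the lid. It was measured at 160, 128 and 127 CPM in shCon against 60.7, 61.6 and 59.4 CPM in shCopa. The shCopa libraries lay close together and all of them were less than the lowest control. This is 43.8% of control, a log2 change of -1.19 ± 0.11 (SE derived from the edgeR test with n = 3 per group, edgeR adjusted p = 0.000305). Psmd3, which encodes the structural lid subunit RPN3, was at 228, 185 and 193 CPM against 120, 126 and 98.6 CPM. Its groups did not overlap, and it fell to 56.8% of control (log2 change -0.82 ± 0.13, adjusted p = 0.00267). Psmd13 (RPN9, another structural lid subunit) was at 140, 109 and 111 CPM against 72.0, 73.0 and 77.6 CPM. It fell to 62.0% of control, again with no overlap (log2 change -0.69 ± 0.12, adjusted p = 0.00374).

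Psmd11 moved the other way. It encodes RPN6, the lid subunit that clamps the cap to the core. Its levels were 139, 130 and 133 CPM in shCon and 184, 198 and 193 CPM in shCopa, so that every knockdown library was above every control. It rose 1.43-fold (log2 change 0.52 ± 0.08, adjusted p = 0.00271). Per length, as TPM (the count divided by transcript length, scaled to a fixed sum per library), the Psmd7 level was 2.07, 1.77 and 1.72 times that of Psmd11 in the shCon libraries and 0.595, 0.559 and 0.554 times in the shCopa libraries. Per length, the order of these subunits of the same lid was therefore reversed in all 3 knockdown libraries. That order rests on the annotated length taken for each gene, 1581 bases for Psmd7 and 2848 bases for Psmd11. In CPM, Psmd7 was already slightly below Psmd11 in shCon 2 and shCon 3. The pair was chosen after its values were seen and is given without a test.

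The other lid subunits did not pass the test. Psmd14, which encodes the deubiquitinase RPN11 itself, was at 148, 117 and 126 CPM against 121, 128 and 142 CPM, and its groups overlapped (log2 change 0.00 ± 0.12, adjusted p = 0.998). Its direct partner Psmd7, by contrast, had no overlap between the groups. Psmd12 (RPN5) had a log2 change of 0.09 ± 0.09, Psmd6 (RPN7) of -0.22 ± 0.11, and Psmd8 (RPN12), the last subunit to join the lid, of -0.17 ± 0.18. Psmd8 was at 490 CPM in shCon 1 and between 313 and 357 CPM in all other libraries. Of the 8 lid members, 3 fell (37.5%, against 18.4% of all genes tested), 1 rose (12.5%, against 18.2%) and 4 did not pass, with a median log2 change of -0.19.

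**Figure D2:**
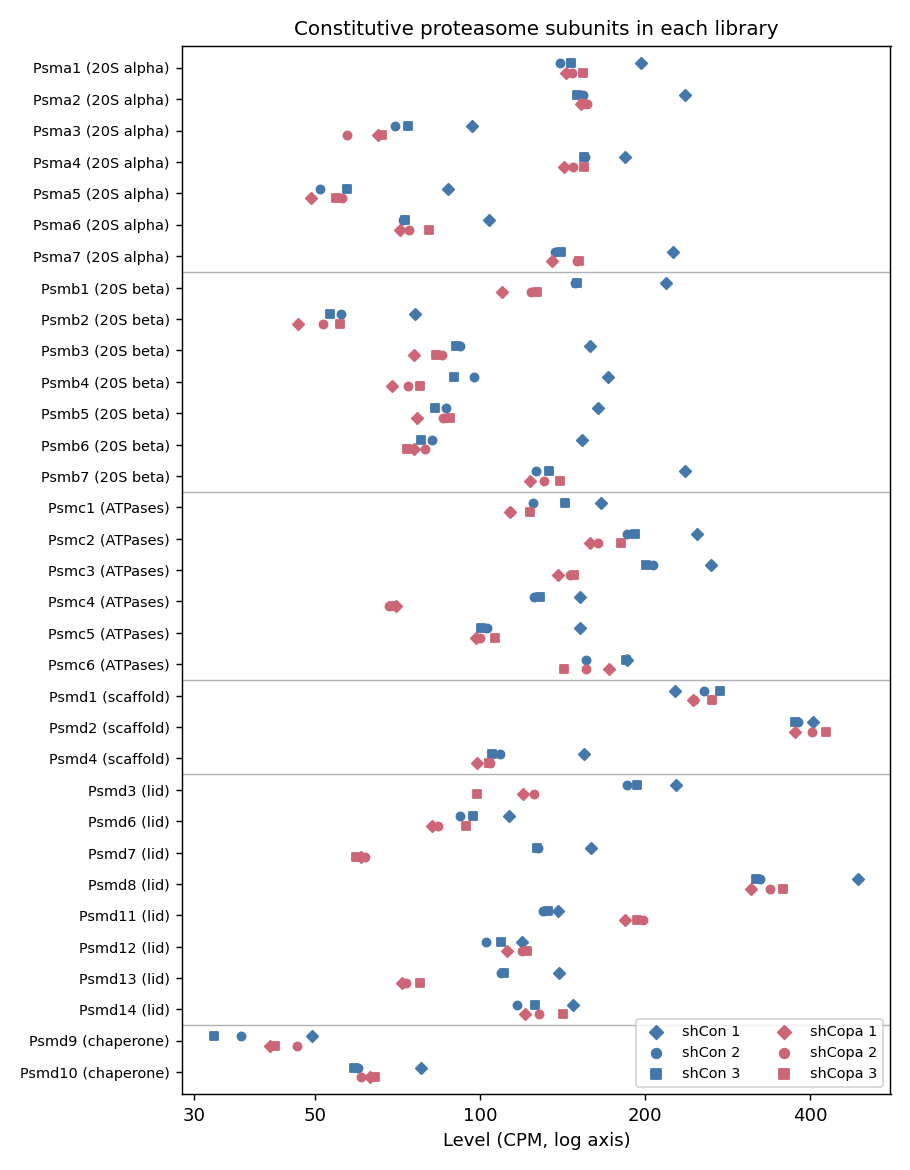
Level of each of the 33 members (x axis, CPM on a log scale) in each of the 6 libraries, in rows grouped by role, with colour for the group and shape for the library. The shCopa points of Psmd7, Psmd3, Psmd13, Psmc4 and Psmc3 lie below all shCon points, those of Psmd11 above, and shCon 1 is the highest point for 29 members.

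The ATPases form the ring that unfolds substrates, with each of the 6 present in a single copy per ring. Psmc4 (RPT3) was at 152, 125 and 129 CPM in shCon against 70.1, 68.1 and 69.2 CPM in shCopa. The means were 135 ± 14.6 and 69.1 ± 1.00 CPM (SD, n = 3), and the spread within either group was much smaller than the gap between them. Psmc4 fell to 51.1% of control (log2 change -0.97 ± 0.10, edgeR adjusted p = 0.000440). Psmc3 (RPT5), whose C terminus docks into the alpha ring, was at 264, 207 and 201 CPM against 138, 146 and 148 CPM. It fell to 64.3% of control without overlap (log2 change -0.64 ± 0.12, adjusted p = 0.00617).

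The remaining ATPases had log2 changes of -0.31 ± 0.12 for Psmc1 (RPT2), -0.31 ± 0.13 for Psmc2 (RPT1), -0.22 ± 0.17 for Psmc5 (RPT6) and -0.16 ± 0.11 for Psmc6 (RPT4). None of these 4 passed the test, with adjusted p from 0.0793 for Psmc1 to 0.334 for Psmc5. Psmc1 and Psmc2 had all 3 shCopa libraries under all 3 shCon libraries, at 113 to 123 against 125 to 166 CPM and at 159 to 181 against 186 to 249 CPM. The same held for 26.9% of all genes tested. Per length, the most abundant ATPase transcript exceeded the least abundant 1.61-fold to 1.94-fold in the shCon libraries and 1.83-fold to 2.11-fold in the shCopa libraries.

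The scaffolds Psmd1 (RPN2) and Psmd2 (RPN1), the large proteins of the base on which ubiquitin receptors and shuttles dock, did not pass the test. Psmd1 was at 227, 256 and 275 CPM against 244, 246 and 265 CPM (log2 change -0.01 ± 0.10), and Psmd2 at 405, 381 and 376 CPM against 375, 404 and 428 CPM (0.06 ± 0.09). The groups of both genes overlapped, with adjusted p of 0.975 and 0.664. The ubiquitin receptor Psmd4 (RPN10) was at 155, 109 and 105 CPM against 98.7, 104 and 104 CPM (-0.26 ± 0.15, adjusted p = 0.223). The chaperones that help the ATPases assemble also did not pass: Psmd9 had a log2 change of 0.13 ± 0.16 and Psmd10 (gankyrin, which binds PSMC4) of -0.07 ± 0.13. Psmd9 was at 49.4, 36.6 and 32.7 CPM against 41.3, 46.2 and 42.2 CPM, so that shCon 1 was above and the other controls below all knockdown libraries.

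In the 20S core, 1 of 14 members fell (7.14%, against 18.4% of all genes tested), 0 rose (against 18.2%) and 13 did not pass, with a median log2 change of -0.31. The number lower was 4 without shCon 1 (28.6%, against 26.9% of all genes) and 7 with offsets for length and GC content (50%, against 27.1%), 5 of these in the beta ring. The alpha ring, which gates the chamber, had log2 changes of -0.12 to -0.35 and no member past the test. They were -0.12 ± 0.14 for Psma1, -0.22 ± 0.18 for Psma2, -0.35 ± 0.14 for Psma3, -0.15 ± 0.10 for Psma4, -0.29 ± 0.20 for Psma5, -0.14 ± 0.15 for Psma6 and -0.20 ± 0.19 for Psma7. Psma3 had the smallest adjusted p of the ring (0.0893), with 96.7, 70.0 and 73.8 CPM against 65.2, 57.2 and 66.2 CPM. Psma2, as an example of a member with overlapping groups, was at 236 CPM in shCon 1 and at 151 to 157 CPM in each of the remaining 5 libraries. Without shCon 1, the alpha ring's median log2 change was 0.02.

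The beta ring carries the active sites. Its 7 members had log2 changes of -0.27 to -0.70, and shCon 1 was 1.40 to 1.94 times the mean of the other controls for them. Psmb1, a non-catalytic beta subunit, was at 218, 149 and 150 CPM in shCon and 110, 124 and 127 CPM in shCopa. Its groups did not overlap, and it fell to 69.7% of control (log2 change -0.52 ± 0.16, edgeR adjusted p = 0.0415). That call was lost when any single shCopa library was left out, with adjusted p up to 0.146. Psmb4, another non-catalytic subunit, had the ring's lowest value (-0.70 ± 0.24) at 171, 97.4 and 89.5 CPM against 69.1, 74.0 and 77.8 CPM, with no overlap and an adjusted p of 0.0555. Without shCon 1, both were called lower with values nearer 0, a log2 change of -0.32 for Psmb1 and of -0.35 for Psmb4.

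The 3 catalytic subunits did not pass the test. Psmb5, the chymotrypsin-like subunit that proteasome inhibitor drugs bind, was at 164, 86.4 and 82.8 CPM against 76.7, 85.4 and 88.0 CPM (-0.41 ± 0.26, adjusted p = 0.248). Psmb6, the caspase-like subunit, was at 153, 81.7 and 78.0 CPM against 75.6, 79.3 and 73.5 CPM (-0.46 ± 0.25, adjusted p = 0.197). Psmb7, the trypsin-like subunit, was at 236, 127 and 133 CPM against 123, 131 and 140 CPM (-0.33 ± 0.23, adjusted p = 0.303). In these 3 genes the levels of shCon 2 and shCon 3 were inside the range of the knockdown libraries, except that shCon 2 was slightly above it for Psmb6, and shCon 1 was far above it. The structural subunits Psmb2 (-0.27 ± 0.15) and Psmb3 (-0.48 ± 0.22) did not pass either. Without shCon 1 the median of the beta ring was -0.10.

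Leaving shCon 1 out left the direction of all 7 called members in place and added calls. Psmd12 (log2 change 0.15) and Psmd9 (0.32) then joined Psmd11 as higher, and Psma3, Psmb3, Psmb4, Psmc1 and Psmc2 joined the 6 lower members. The calls on Psmd7, Psmc4, Psmd3, Psmd13, Psmc3 and Psmd11 were kept under each of 13 other settings tried, with log2 changes between -1.26 and -1.08 for Psmd7, between -1.03 and -0.88 for Psmc4 and between 0.39 and 0.55 for Psmd11.

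Per length, the members spanned a 12.3-fold to 16.7-fold range of TPM within a library. These levels use a single annotated transcript length for each gene, so the order between genes depends on that choice. Psmd8 was the most abundant transcript in both groups (569 ± 85.2 TPM in shCon, 547 ± 26.9 TPM in shCopa; SD, n = 3), and Psmd9 the least abundant (35.4 ± 4.2 and 41.8 ± 2.4 TPM). By mean TPM, Psmd7 went from rank 19 to rank 30 of 33 (204 ± 6.4 to 96.0 ± 2.8 TPM) and Psmc4 from 15 to 27 (220 ± 3.9 to 120 ± 3.5 TPM). Psmd3 went from rank 14 to 25, Psmd13 from 27 to 31 and Psmc3 from 6 to 11. Psmd11 moved up from rank 30 to rank 20 (111 ± 7.6 to 169 ± 4.6 TPM).

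**Figure D3:**
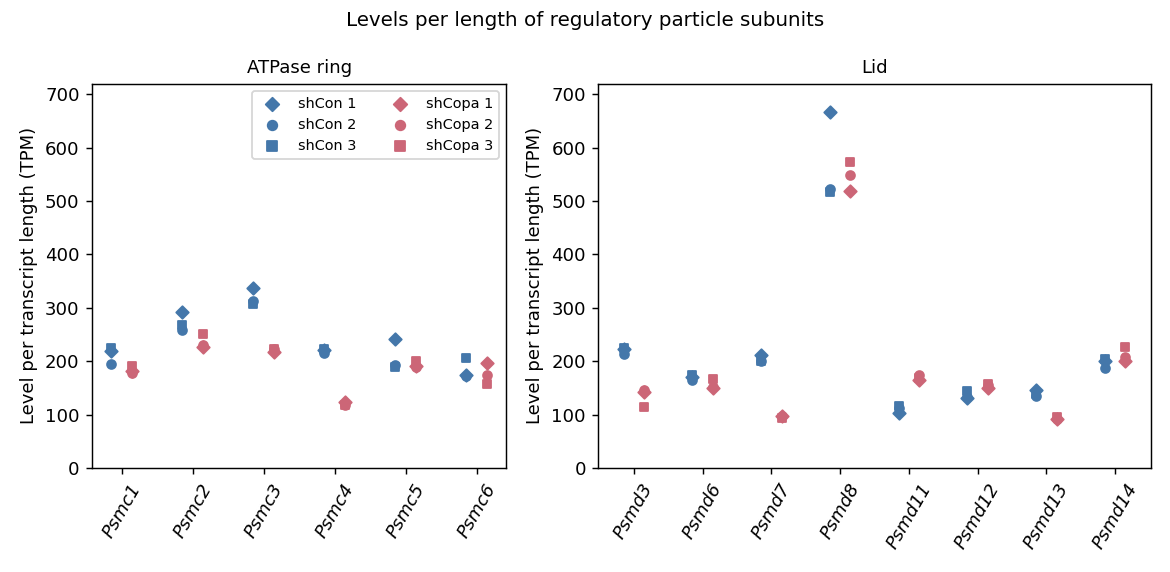
Level per transcript length (y axis, TPM) of the 6 ATPases (left) and the 8 lid subunits (right) in each of the 6 libraries, with colour for the group and shape for the library. The shCopa points of Psmc3, Psmc4, Psmd3, Psmd7 and Psmd13 lie below all shCon points and those of Psmd11 above, and Psmd8 is the highest of the lid in every library.

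Some members share sequence or position with other genes, and the sources used here do not say whether reads were counted by strand. Of the 33 members, 11 had a stretch of at least 200 bases at 95% identity or more in another annotated gene, and 9 overlapped another gene. Psmb1, Psmc4 and Psmd7 had neither, and Psmd3 overlaps Gm12356, which had almost no counts, by 17 bases. Psmc3 overlaps Slc39a13 on the opposite strand by 147 exonic bases, and that gene had 26.9% of the Psmc3 count and a log2 change of -0.25. Psmd13 overlaps Sirt3 by 329 bases, also on the opposite strand, and Sirt3 had 8.39% of its count and a log2 change of -0.07. Psmd11 has a near-identical copy, A730017L22Rik, with 2.16% of its count and a log2 change of -0.07. The value of Psma3 is uncertain, since Gm13835, with a stretch identical to it, had counts equal to 38.5% of those of Psma3. That of Psmb7 is uncertain too, since Nek6 overlaps it by 253 bases on the opposite strand and rose (log2 change 0.42, edgeR adjusted p = 0.00905).

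The immunoproteasome replaces the 3 catalytic subunits by Psmb8, Psmb9 and Psmb10, whose activities favour peptides for antigen presentation. Psmb8 was at 72.5, 47.6 and 45.9 CPM in shCon and 85.0, 88.9 and 94.97 CPM in shCopa, and it rose (log2 change 0.70 ± 0.18, edgeR adjusted p = 0.0200). That call was lost when shCon 2, shCon 3 or any shCopa library was left out, with adjusted p up to 0.0809. Psmb9 (15.6, 9.62 and 8.26 against 17.0, 17.6 and 18.8 CPM) had a log2 change of 0.68 ± 0.23 (adjusted p = 0.0554) and Psmb10 (95.8, 52.8 and 51.8 against 76.8, 85.4 and 90.2 CPM) of 0.33 ± 0.24 (adjusted p = 0.310). In all 3 genes shCon 1 was the highest control. Without it, all 3 were called higher, against 28.2% of all genes tested. The log2 changes were then 0.93 for Psmb8, 0.99 for Psmb9 and 0.68 for Psmb10 (edgeR adjusted p = 1.45e-09, 1.21e-06 and 2.28e-07). With offsets for length and GC content all 3 were also called higher, against 21.4% of all genes tested. Their log2 changes were 0.80, 0.80 and 0.50 (edgeR adjusted p = 0.000153, 0.00118 and 0.00737). The ratio to the constitutive partner within a library does not depend on how libraries are scaled. The Psmb8 to Psmb5 count ratio was 0.442, 0.551 and 0.555 in shCon and 1.11, 1.04 and 1.08 in shCopa, a 2.09-fold difference. The Psmb9 to Psmb6 ratio was 0.102, 0.118 and 0.106 against 0.225, 0.223 and 0.256, a 2.16-fold difference. The Psmb10 to Psmb7 ratio was 0.406, 0.417 and 0.389 against 0.624, 0.652 and 0.647, a 1.59-fold difference. All 3 ratios were higher in every knockdown library than in every control, and in the two-sided exact permutation test each had p = 0.1, the smallest that 3 against 3 libraries can give, and p = 0.1 after adjustment over the 3 ratios.

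**Figure D4:**
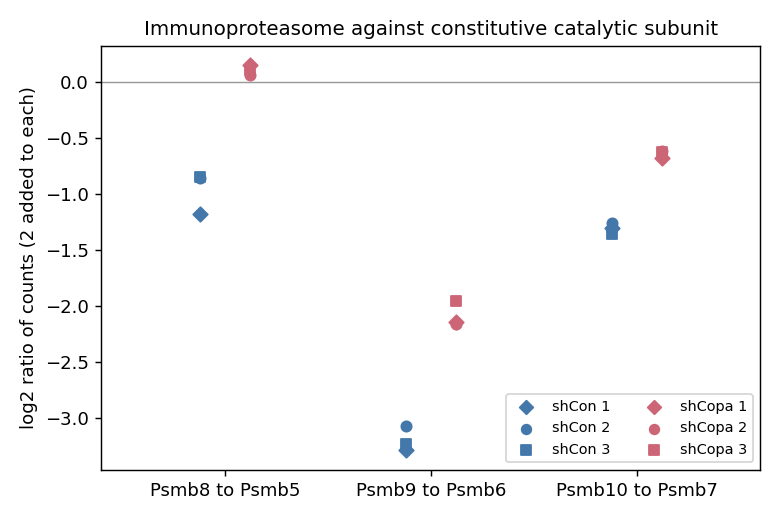
Log2 ratio of the counts, with 2 added to each, of every catalytic immunoproteasome subunit to its constitutive partner (y axis) in each of the 6 libraries. For all 3 pairs the shCopa points lie above all shCon points.

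Of 45 other listed genes of the pathway, 42 could be tested: 9 rose (21.4%, against 18.2% of all genes tested), 5 fell (11.9%, against 18.4%) and 28 did not pass, with a median log2 change of 0.04. Leaving out 1 library moved the number that rose to between 3 and 18 and the number that fell to 4 or 5, with 18 higher without shCon 1 (42.9%, against 28.2% of all genes), 4 without shCon 3 and 3 without any 1 of the remaining 4 libraries. Of the other 19S and 20S subunits, Adrm1, which encodes the ubiquitin receptor RPN13, fell (log2 change -0.67 ± 0.12, adjusted p = 0.00500). Among 5 activators and inhibitors, none passed, and Psme1, part of the PA28 activator, had a log2 change of 0.38 ± 0.13 (adjusted p = 0.0585). Of 9 tested assembly factors, 1 rose (11.1%, against 18.2% of all genes tested). It was Akirin2, which brings proteasomes into the nucleus (0.38 ± 0.11, adjusted p = 0.0327).

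The 8 genes of transcription control moved in both directions: 4 fell (50%, against 18.4% of all genes tested), 1 rose (12.5%, against 18.2%) and 3 did not pass. Nfe2l1 was at 625, 699 and 678 CPM in shCon against 315, 309 and 313 CPM in shCopa. Every knockdown library was far below every control, at 46.8% of control on average (log2 change -1.09 ± 0.09, edgeR adjusted p = 0.000143). Nfe2l3, its relative, fell by 0.99 ± 0.12 on the log2 scale and Ngly1, the deglycosylating enzyme, by 0.68 ± 0.10. Vcp also fell (-0.25 ± 0.08, adjusted p = 0.0487), a call lost without shCon 2, shCon 3 or any shCopa library, with adjusted p up to 0.179. Maff, which encodes a small MAF partner, rose from 57.6, 32.3 and 33.8 CPM to 98.0, 108 and 111 CPM (1.36 ± 0.22, adjusted p = 0.00305). Nfe2l2, the oxidative stress relative of Nfe2l1, had a log2 change of 0.24 ± 0.09 and did not pass.

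**Figure D5:**
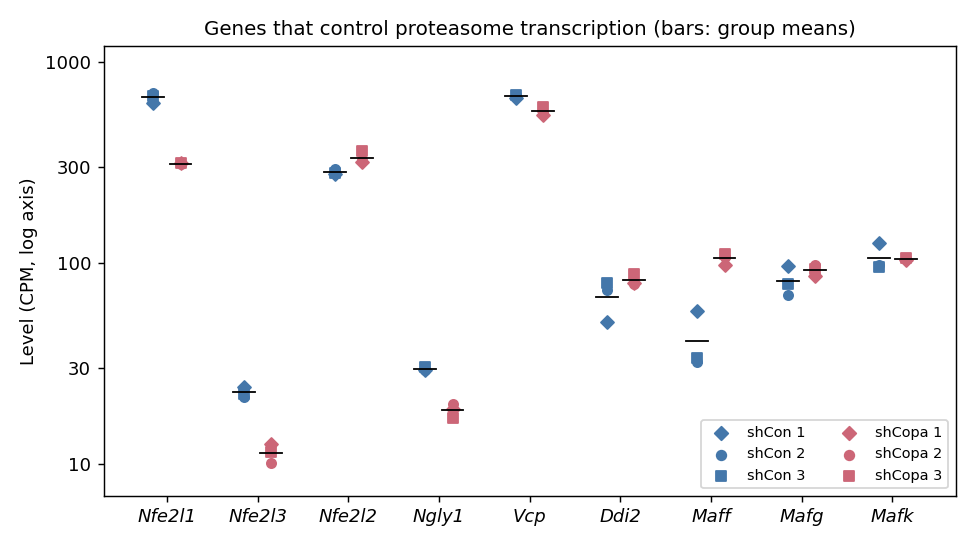
Level (y axis, CPM on a log scale) of the 8 genes of transcription control and of Ddi2 in each of the 6 libraries, with bars for the group means. The shCopa points of Nfe2l1, Nfe2l3 and Ngly1 lie well below the shCon points and those of Maff above, while Mafk and Mafg overlap between the groups.

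Of the ubiquitin genes and activating enzymes, 2 of 6 (33.3%, against 18.2% of all genes tested) rose. Among them Uba6, an alternative activating enzyme, rose by 0.96 ± 0.22 on the log2 scale (adjusted p = 0.0123, and 0.0537 without shCopa 1). Of 3 proteasome-bound ubiquitin enzymes, Usp14 (0.35 ± 0.09) and Ube3c (0.26 ± 0.08) rose (66.7%, against 18.2% of all genes tested). Of 6 ubiquitin shuttles, Rad23b (0.31 ± 0.08) and Ubqln2 (0.29 ± 0.08) rose (33.3%, against the same 18.2%). These 4 calls and that on Akirin2 were each lost without shCon 2, without shCopa 2 and without shCopa 3, and also without shCon 3 (except Rad23b) and without shCopa 1 (except Usp14). Over all settings, the adjusted p reached 0.131 for Akirin2, 0.539 for Usp14, 0.267 for Ube3c, 0.163 for Rad23b and 0.142 for Ubqln2. With offsets for length and GC content, none of the 3 proteasome-bound enzymes passed.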

How the data were processed

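RNA sequencing libraries of 3 shCon and 3 shCopa samples were analysed. The deposited table holds the authors' estimated counts per Ensembl gene with 2 decimals. The build was GRCm39, and the tools were DESeq2, featureCounts, HTSeq, HISAT2 2.0.5 and Trimmomatic, per the submitters' processing notes, which give no order. The sources used here do not give the counting program of this table, the annotation release or the strand setting. Estimated counts were rounded to whole numbers. The library totals were 19634938 to 24546204. Of 55414 identifiers, 52081 had a symbol.

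The main test was edgeR 4.0.16's quasi-likelihood test (R 4.3.3, TMM scaling, filterByExpr, robust fit) over 14808 genes with Benjamini-Hochberg adjustment and a threshold of 0.05. It was also run on counts simulated without the shift of shCon 1 or its length trend, and that run is not used as support here. The SE of a log2 change is its absolute value divided by the square root of the main test's F statistic. Since the fit shares dispersion between genes, this SE is not the spread of the 3 libraries of a group alone. Alternatives were DESeq2 1.42.0, limma-voom 3.58.1, DESeq2 size factors, no low-count filter, a replicate block, offsets for length and GC content fitted with mgcv 1.9.3, and leaving out each library. Lengths, overlaps and near-identical copies came from the GENCODE annotation of an earlier mouse build, matched by gene identifier. The length of a gene was that of its longest transcript marked as principal, or of its longest transcript where none was marked. Other choices of transcript were not tried. TPM were computed here from the counts and these lengths. Ratios of counts were compared by an exact permutation test, with a count of 2 added to each gene. All members are named. Of the other lists, the genes past the threshold are named, apart from a gene that is not reported here. The members and lists were chosen with earlier results of these data known. Paaf1 was not matched and is not analysed here. Psma8 and Psmb11 were not tested, at low counts.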

Additional observations from a re-analysis of the deposited data

How the results depend on the processing

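The counts, the median and the log2 changes of the members and of the named pathway genes past the threshold, Psmb9 and Psmb10 were recomputed under 7 other settings and with each library left out in turn. The 3 ratios were recomputed with a prior count of 0.5, with sign flips and with each library left out. The levels per length and the other pathway genes were not part of this. The count of members higher was 1 to 3 and the count of members lower 5 to 11 with a library left out, and the count lower was 15 with length and GC offsets and 13 with the replicate block and these offsets. The median log2 change of the members was -0.35 to -0.071 with a library left out. The count of other pathway genes higher was 5 with no low-count filter, 4 with the replicate block, and 3 to 18 with a library left out. Members that changed sign when a library was left out had lowest and highest log2 changes of -0.22 and 0.0428 (Psma1), -0.35 and 0.0160 (Psma2), -0.24 and 0.0466 (Psma6), -0.33 and 0.0673 (Psma7), -0.50 and 0.0097 (Psmb7), -0.0802 and 0.0464 (Psmd1), -0.29 and 0.0586 (Psmd8), -0.0776 and 0.10 (Psmd14), -0.0036 and 0.32 (Psmd9), and -0.15 and 0.0728 (Psmd10). With length and GC offsets, and with these and the replicate block, the log2 changes were -0.0133 and -0.0137 for Psmd2, -0.0339 and -0.0336 for Psmd12, and -0.1025 and -0.1039 for Psmd14, which was -0.0099 with DESeq2 and -0.030 with no filter. The cause of these changes was not tested. The direction of the 7 called members was the same under all of these settings, and the 3 ratios of immunoproteasome to constitutive subunits were higher in shCopa under each of theirs, by 0.96 to 1.12, 1.04 to 1.17 and 0.64 to 0.69 on the log2 scale.

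The labels do not say whether the replicate numbers pair the libraries. Same-numbered libraries deviated from their group means with correlations of -0.162, -0.0584 and -0.114, against -0.113 to 0.226 for differently numbered ones. With 3 libraries per group and shCon 1 apart from the other controls, these correlations cannot decide it. With the replicate block, 1 member was higher and 5 lower, the median was -0.24, and the call on Psmb1 was lost. Exact sign flips over the same numbers gave p = 0.25 for each ratio, the smallest that 3 pairs allow. The lowest count of a member in any library was 796, and the effect of depth was not tested.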
